A study of Mus musculus with 9 samples.

Results

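The unfolded protein response and the protein folding machinery of the endoplasmic reticulum (ER) were followed here through 36 genes, a list of ER chaperones, disulfide isomerases, stress sensors and components of ER-associated degradation. All 36 were found among the 22048 mouse genes of the count table, 35 under their current symbol and Ero1b under the older symbol Ero1lb. All 36 passed the filter on low counts that left 9739 genes for testing. The samples were pancreatic islets of ICR mice, an outbred stock, kept in culture for 3 days. The medium was RPMI with fetal bovine serum and antibiotics, and its glucose was 11.8 mM (the basal control), 20 mM (hyperglycaemia) or 35 mM (extreme hyperglycaemia), with 3 libraries at each concentration. The treatment text has 25 mM in place of 35 mM; the 35 mM of the sample titles was followed. The islets came from 9 mice. The labels do not say whether each library holds the islets of 1 mouse, nor give sex or age, so p-values measure the spread between these libraries, which may be in part technical. All groups, the control included, had been through isolation and the same days in culture, and no freshly isolated islets enter the comparisons.

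RNA was measured by CEL-Seq2, which counts the 3′ ends of transcripts, with 3228648 to 4559561 reads assigned to genes per library. Levels are given in CPM, counts scaled to a common library size, with library sizes adjusted by TMM. Counts were not corrected for length, and levels are compared between libraries and not between genes. Markers of beta cells made up 50.6% to 59.0% of the gene counts. Acinar cells of the exocrine pancreas, which are rich in ER, were present as well: all 19 acinar markers had counts, and their summed share was 0.547%, 1.38% and 0.373% in the 11.8 mM libraries, 1.40%, 0.845% and 0.772% at 20 mM and 1.24%, 0.743% and 0.770% at 35 mM. In RNA from whole islets, more cells of a type and more RNA per cell cannot be told apart.

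Secretory proteins are threaded into the ER unfolded, and Hsp70- and Hsp90-type chaperones, lectin chaperones and disulfide isomerases fold them there. When unfolded proteins accumulate, membrane sensors (IRE1, PERK and ATF6) slow translation and switch on genes for folding and for the removal of misfolded chains through ER-associated degradation. Beta cells depend on this system because proinsulin, made in large amounts after glucose stimulation, needs correct disulfide bonds before it can leave the ER.

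Many of these genes carry in their promoter an ER stress response element (ERSE), CCAAT and CCACG with any 9 bases between them, which is bound by ATF6 together with NF-Y. The element was searched on both strands of the 300 bases around each start site (250 upstream, 50 downstream; RefSeq, GRCm38.p6). A promoter entry was found for 30 of the 36 members; Hyou1, Manf, Atf6, Derl1, Erp29 and Erlec1 were without one. ERSE was found in 10 of the 30 (33.3%), against 37 of 27025 genes in the whole promoter table (0.137%). The 11 matches are shown because they mark which members carry the element. Each is written along the element, 5′ to 3′, with the fixed bases in capitals. All 11 lay upstream of the RefSeq start site, 44 to 212 bases away, 6 on the strand of the gene and 5 on the other.
Hspa5 (chr2:34772025-34772043): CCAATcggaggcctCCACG
Hsp90b1 (chr10:86705638-86705656): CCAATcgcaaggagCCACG
Hsp90b1 (chr10:86705533-86705551): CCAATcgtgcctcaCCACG
Dnajc3 (chr14:118937827-118937845): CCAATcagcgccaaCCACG
Pdia6 (chr12:17266491-17266509): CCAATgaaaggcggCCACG
Calr (chr8:84847075-84847093): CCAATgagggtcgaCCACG
Canx (chr11:50325800-50325818): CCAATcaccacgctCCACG
Creld2 (chr15:88819520-88819538): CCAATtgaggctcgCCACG
Syvn1 (chr19:6046532-6046550): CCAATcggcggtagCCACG
Derl3 (chr10:75893242-75893260): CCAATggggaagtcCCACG
Ero1b (chr13:12565682-12565700): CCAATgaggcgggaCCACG

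The shorter ERSE-II, ATTGG and CCACG with any 1 base between them, was found in Dnajb11 and Herpud1, that is in 2 of the 30 promoters (6.67%) against 12 of all genes (0.0444%). The core of the unfolded protein response element, TGACGTGG, was found in Txndc5 and Txndc11 (6.67% against 0.714% of all genes). No match of one motif shared bases with a match of another. The match in Herpud1 began 52 bases upstream of the RefSeq start site. That in Dnajb11 lay downstream of it, from base 8 with the start site counted as base 1. The ERSE-II matches are shown in the same way.
Dnajb11 (chr16:22857852-22857862): ATTGGcCCACG
Herpud1 (chr8:94386377-94386387): ATTGGgCCACG

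The sequence upstream of the gene is shown for the 2 members that passed the test in a comparison, Pdia6 and Hsp90b1, and for Dnajc3, a cochaperone of the same pathway. It ends where the RefSeq or the GENCODE M21 gene begins, whichever comes first, and so spans 206, 185 and 250 bases. It runs 5′ to 3′ along the gene, with the fixed bases of ERSE in capitals. An element on the other strand reads CGTGG, 9 bases, ATTGG. Hsp90b1 was the only one of the 10 ERSE-carrying members with 2 matches.
Pdia6 (chr12:17266339-17266544, plus strand): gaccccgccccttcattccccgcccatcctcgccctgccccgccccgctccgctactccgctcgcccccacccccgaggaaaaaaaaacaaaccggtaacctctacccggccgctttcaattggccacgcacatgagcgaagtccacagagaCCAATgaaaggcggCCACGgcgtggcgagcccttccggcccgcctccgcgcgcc
Hsp90b1 (chr10:86705510-86705694, minus strand): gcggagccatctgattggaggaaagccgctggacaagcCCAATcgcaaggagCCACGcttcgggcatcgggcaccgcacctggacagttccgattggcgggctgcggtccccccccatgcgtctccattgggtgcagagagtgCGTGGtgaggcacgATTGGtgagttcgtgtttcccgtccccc
Dnajc3 (chr14:118937682-118937931, plus strand): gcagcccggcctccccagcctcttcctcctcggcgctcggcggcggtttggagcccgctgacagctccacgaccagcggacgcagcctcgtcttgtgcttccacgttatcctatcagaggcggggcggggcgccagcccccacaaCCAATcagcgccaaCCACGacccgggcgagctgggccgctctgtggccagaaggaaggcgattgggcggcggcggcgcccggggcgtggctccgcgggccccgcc

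At 20 mM glucose, 1 of the 36 members rose against 11.8 mM: Pdia6, a protein disulfide isomerase. With the mean of 20 and 35 mM set against 11.8 mM, again 1 member rose: Hsp90b1, which encodes GRP94, the Hsp90 chaperone of the ER. This pooled contrast was chosen with earlier results of these data known. No member fell in any comparison. Most of the others lay on the same side without passing the test: the log2 fold change was above 0 for 31 of 36 at 20 mM (49.8% of all genes), for 29 of 36 at 35 mM (49.6%) and for 31 of 36 over both raised concentrations (48.9%). The members' median log2 fold change was 0.25 at 20 mM, 0.19 at 35 mM and 0.22 over both, where the median of all genes tested was within 0.01 of 0. Single basal libraries moved these medians: without 11.8 mM replicate 1 they were 0.29 at 20 mM and 0.32 at 35 mM, and without replicate 3 they were 0.16 and 0.13. These are small differences, a median fold of 1.19 at 20 mM and 1.14 at 35 mM. The comparisons share the 11.8 mM libraries and are therefore not independent of each other.

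Calls rest on the quasi-likelihood test of edgeR, with p-values adjusted by Benjamini-Hochberg over all 9739 genes. Of all genes, 0.185% were called at 20 mM (0.154% higher), 0.863% at 35 mM (0.626% higher) and 0.863% over both raised concentrations (0.678% higher). At 35 mM no member was called, by this test or by DESeq2, and 12 had an unadjusted p under 0.05 in the upward direction against 5.63% of all genes. The 1 member with such a p in the downward direction (4.89% of all genes) was Derl3. At 20 mM 11 members had one upward (4.45% of all genes) and 0 downward (3.52%), and over both raised concentrations 14 upward (5.49%) and 0 downward (4.62%). In the test for any difference among the 3 concentrations 0 members were called, against 0.606% of all genes. There 14 members had an unadjusted p under 0.05 (9.05% of all genes), and DESeq2 called 2, Hsp90b1 and Pdia6 (0.842% of all genes). The members were measured with smaller standard errors than genes in general. The median was 0.149 against 0.247 at 20 mM, 0.149 against 0.248 at 35 mM and 0.130 against 0.214 over both. The shares of all genes are therefore not a background of equal precision.

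**Figure D1:**
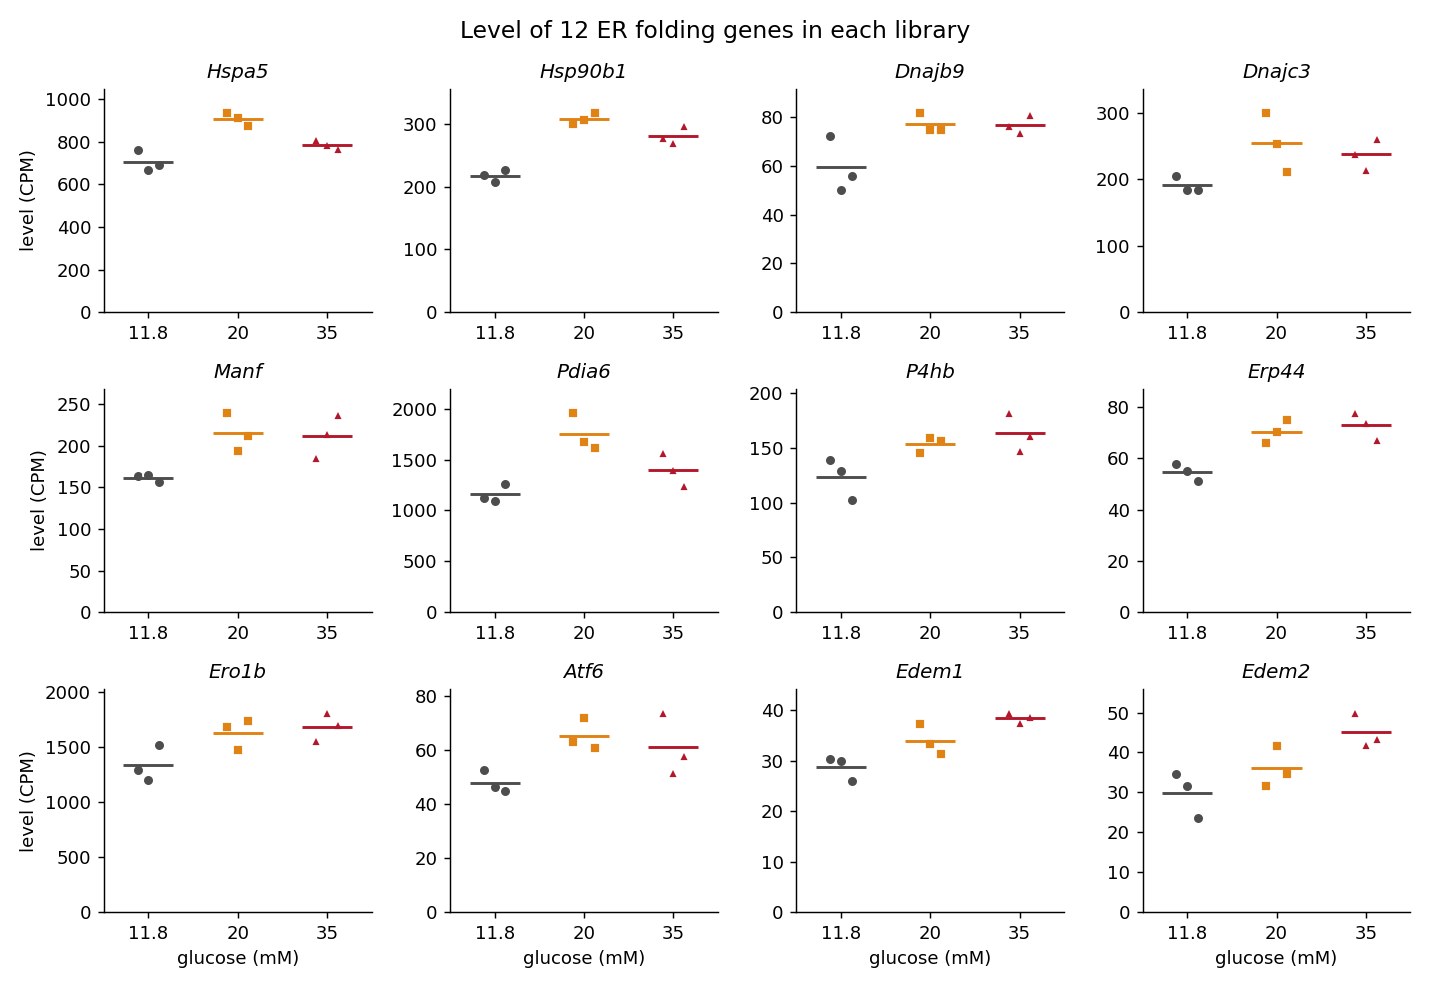
Level in CPM (y axes start at 0) of 12 members in each of the 9 libraries, by glucose concentration (x axis, mM); points are libraries and horizontal bars are group means. Levels are adjusted by TMM. In Hspa5, Hsp90b1, Dnajb9, Dnajc3, Manf, P4hb, Erp44 and Edem1 every library of raised glucose lies above every 11.8 mM library, and in Pdia6 this holds for the 20 mM libraries.

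Pdia6, on chromosome 12 (GRCm38, 17266545 to 17284770, plus strand, Ensembl ENSMUSG00000020571, protein-coding in GENCODE M21), encodes an isomerase that forms and rearranges disulfide bonds in new secretory proteins. Its level was 1127, 1089 and 1259 CPM in the 11.8 mM libraries, 1960.3, 1675 and 1618 CPM at 20 mM and 1567, 1400.3 and 1238 CPM at 35 mM. All 20 mM libraries stood above all others, and the 35 mM libraries reached down into the basal range. At 20 mM the difference was 0.60 ± 0.13 on the log2 scale (± SE), a 1.51-fold rise (adjusted p = 0.0489, edgeR), and 0.28 ± 0.13 at 35 mM (adjusted p = 0.465). The call at 20 mM stood close to the threshold: it was kept under 4 of 21 alternative settings, and without 20 mM replicate 1 the log2 fold change was 0.50 (adjusted p = 0.352). Pdia6 was also uneven between the barcoded sub-libraries that make up a library (CPM without TMM, unlike the levels above). In 11.8 mM replicate 2, 1 sub-library held 457 CPM against 1111 and 1237 in the others. In 35 mM replicate 3, 1 held 722 CPM against 1511 and 1557. Without these 2 sub-libraries the log2 fold change was 0.53 at 20 mM (adjusted p = 0.0871) and 0.31 at 35 mM.

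Hsp90b1, on chromosome 10 (GRCm38, 86690209 to 86705509, minus strand, Ensembl ENSMUSG00000020048, protein-coding in GENCODE M21), encodes a chaperone that folds a restricted set of secreted and membrane proteins, insulin-like growth factors and proinsulin among them. Its level was 218, 208 and 226 CPM at 11.8 mM, 299, 305 and 318 CPM at 20 mM and 278, 269 and 297 CPM at 35 mM. The 3 groups did not overlap, with 20 mM highest. Over both raised concentrations the log2 fold change was 0.44 ± 0.11 (SE), a 1.35-fold rise (adjusted p = 0.0412, edgeR). An exact permutation test over libraries (two-sided) gave 0.0119 for Hsp90b1, the smallest p that 6 against 3 allow. It gave the same for 6 members that were not called: Dnajb9, P4hb, Manf, Edem1, Erp44 and Erlec1. The share of all genes that reach this p was not computed, so the count of members has no background to be read against. For Hsp90b1, each concentration alone did not pass: 0.50 ± 0.12 at 20 mM (adjusted p = 0.0916) and 0.37 ± 0.12 at 35 mM (adjusted p = 0.213). The pooled call was kept under 5 of 20 alternative settings and was lost on leaving out any single library, with adjusted p between 0.0560 and 0.150 and log2 fold changes between 0.41 and 0.46.

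The chaperones, cochaperones and stress-induced secretory factors (9 members) had a median log2 fold change of 0.36 at 20 mM, 0.22 at 35 mM and 0.26 over both, with all 9 above 0 over both. Hsp90b1 was the 1 that passed. Their summed level was 1652 ± 139 CPM at 11.8 mM, 2130 ± 75.1 CPM at 20 mM and 1945 ± 25.3 CPM at 35 mM (SD, n = 3 libraries), with Hspa5 the largest part.

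Hspa5 encodes BiP, the ER Hsp70 that binds unfolded chains and holds the stress sensors inactive. It measured 759.8, 668 and 690.1 CPM at 11.8 mM, 936, 911 and 873 CPM at 20 mM and 806, 786 and 768 CPM at 35 mM. The 3 concentrations did not overlap, and 35 mM lay between the others. Its log2 fold change was 0.36 ± 0.12 at 20 mM (adjusted p = 0.351) and 0.16 ± 0.12 at 35 mM (adjusted p = 0.738).

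Dnajb9 (ERdj4) and Dnajc3 (p58IPK) are J-domain cochaperones of BiP; the former restrains IRE1 and the latter inhibits PERK. Dnajb9 was at 72.5, 50.2 and 55.9 CPM, 81.9, 74.8 and 75.0 CPM and 76.5, 73.5 and 81.0 CPM at 11.8, 20 and 35 mM. One basal library, replicate 1, stood just under the raised range, and the log2 fold change over both was 0.37 ± 0.13 (adjusted p = 0.216). Dnajc3 was at 204, 184 and 184 CPM, 299.9, 252 and 211 CPM and 238, 214 and 260.2 CPM in the same order. Its lowest raised library, 20 mM replicate 3, lay just above the highest basal library, and the log2 fold change was 0.36 ± 0.12 (adjusted p = 0.200).

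Manf encodes a secreted, ER-resident neurotrophic factor that is needed for beta cell survival in mice. It was at 163, 165 and 157 CPM at 11.8 mM, 239, 194 and 211 CPM at 20 mM and 185, 214 and 237 CPM at 35 mM. The basal libraries lay close together and below all 6 raised libraries. The log2 fold change was 0.40 ± 0.12 over both (adjusted p = 0.114) and of like size at each concentration (0.41 and 0.39).

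The remaining chaperone-group members, Dnajb11, Sdf2l1, Creld2 and Hyou1, had log2 fold changes of 0.14 to 0.25 over both raised concentrations and adjusted p of 0.641 or more. In each of them 11.8 mM replicate 1 was the highest basal library. Sdf2l1, a BiP cofactor strongly induced by ER stress, was at 143, 101 and 93.8 CPM in the basal libraries against 129, 151 and 129 CPM at 20 mM and 108, 138 and 123 CPM at 35 mM. Creld2, an ER stress-inducible isomerase-like protein, was at 74.1, 56.0 and 42.8 CPM, 61.9, 81.6 and 68.5 CPM and 59.8, 60.1 and 52.0 CPM, so that a single basal library covered much of the raised range in both genes.

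**Figure D2:**
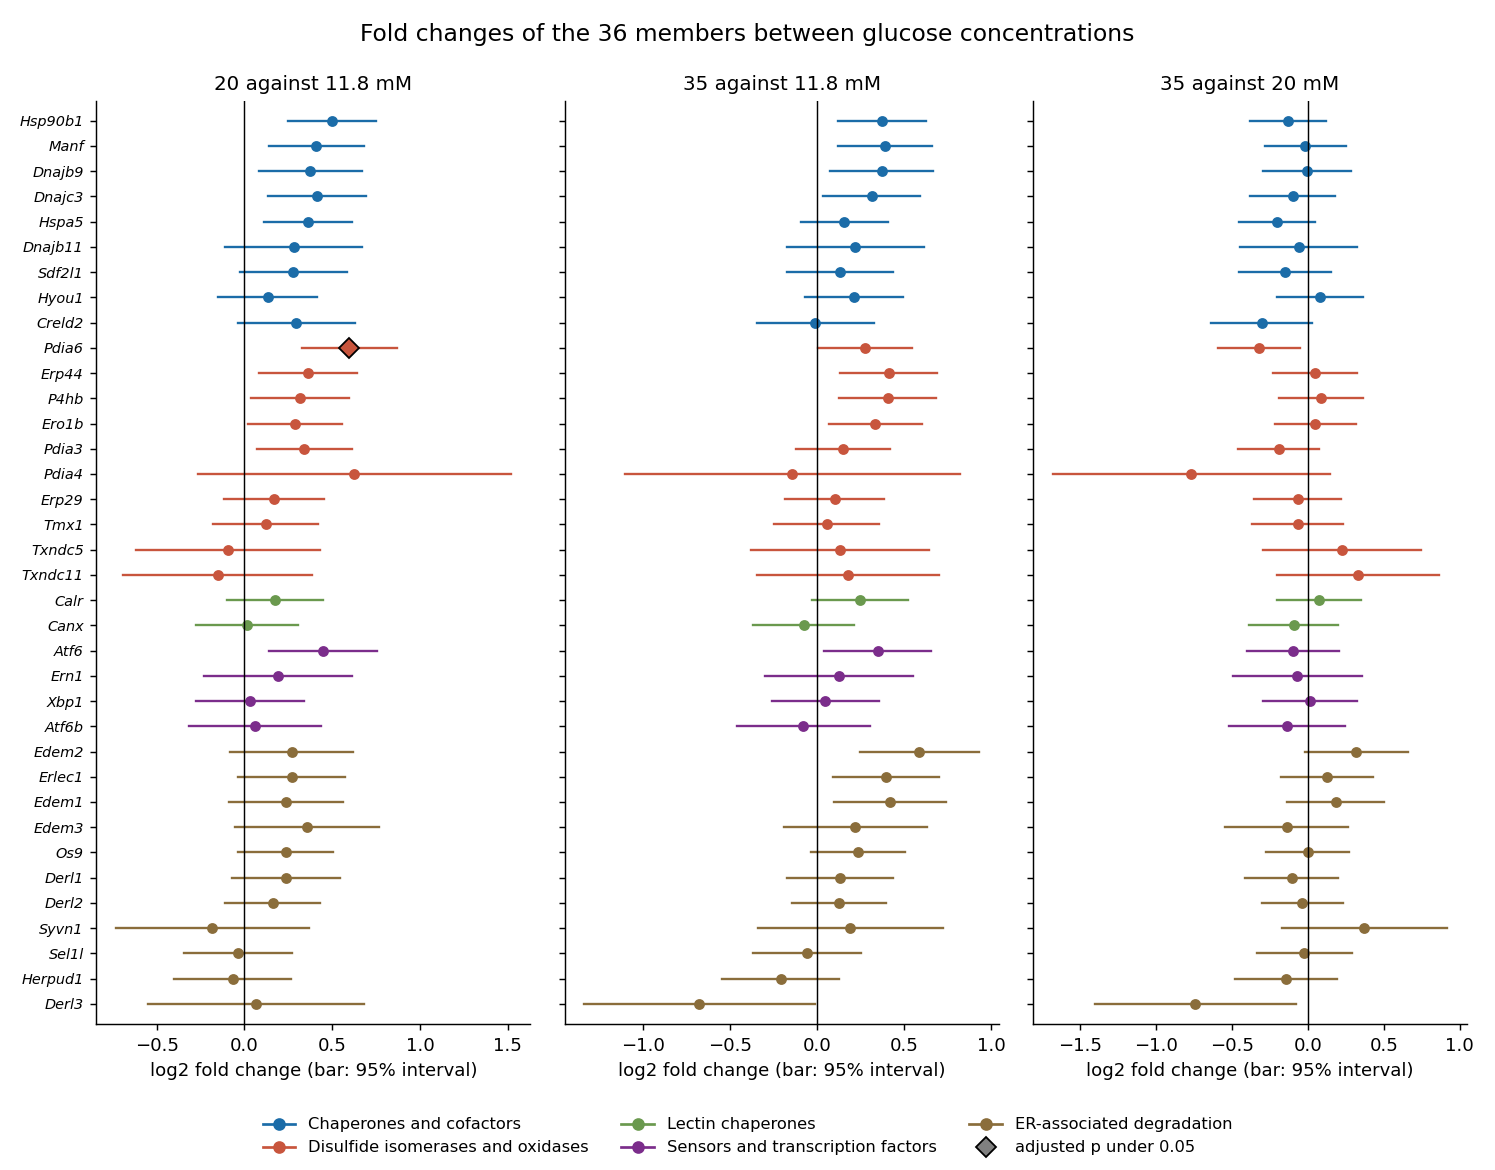
Log2 fold change (x axes) of the 36 members, 1 row per gene, ordered by role (colour) and within a role by the fold change over both raised concentrations; bars are 95% intervals and a black-edged diamond marks an adjusted p under 0.05. The diamond is Pdia6 at 20 mM; 31 of 36 points at 20 mM and 29 of 36 at 35 mM lie right of 0, against 12 of 36 in the comparison of 35 with 20 mM.

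The disulfide isomerases and oxidases (10 members) had a median log2 fold change of 0.30 at 20 mM and 0.16 at 35 mM, and all 10 were above 0 over both, with a median of 0.24. Pdia6 was the 1 that passed. P4hb encodes PDI, the founding member of the family. It was at 139, 129 and 102 CPM at 11.8 mM, 145, 159 and 157 CPM at 20 mM and 182, 147 and 161 CPM at 35 mM, with all raised libraries above all basal ones and a log2 fold change of 0.36 ± 0.12 over both (adjusted p = 0.203). Unlike Pdia6, its highest mean was at 35 mM.

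Erp44 encodes a thioredoxin-like protein that returns oxidases and unassembled subunits from the early secretory pathway to the ER. It was at 57.8, 55.1 and 51.3 CPM at 11.8 mM, 66.2, 70.2 and 75.0 CPM at 20 mM and 77.8, 73.7 and 67.0 CPM at 35 mM. Again no raised library overlapped a basal one, and the log2 fold change was 0.39 ± 0.12 (adjusted p = 0.156). Ero1b, given here in addition to the members the naming rule selects, encodes the ER oxidase that is enriched in the pancreas and passes oxidising equivalents to PDI. It was at 1289, 1196 and 1516 CPM, 1683, 1469 and 1732 CPM and 1548, 1807 and 1693 CPM at 11.8, 20 and 35 mM. 11.8 mM replicate 3 overlapped the raised libraries, and the log2 fold change was 0.31 ± 0.11 (adjusted p = 0.273).

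Pdia3, the isomerase partner of the lectin chaperones, had a log2 fold change of 0.34 ± 0.13 at 20 mM (adjusted p = 0.456) and 0.15 ± 0.13 at 35 mM. Pdia4 was counted at 1.39 to 5.85 CPM in the 9 libraries, and its interval at 20 mM, -0.26 to 1.52, held both signs. Txndc5, Txndc11, Tmx1 and Erp29 lay between 0.01 and 0.13 over both raised concentrations, with adjusted p of 0.779 or more. As a sum the 10 genes were at 2927 ± 233 CPM at 11.8 mM, 3904 ± 253 CPM at 20 mM and 3599 ± 154 CPM at 35 mM (SD, n = 3), a sum made mostly of Pdia6 and Ero1b counts.

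The lectin chaperones calreticulin (Calr, soluble) and calnexin (Canx, membrane-bound) hold glycoproteins through their trimmed sugars. Calr was at 204, 182 and 146 CPM at 11.8 mM, 193, 198 and 208 CPM at 20 mM and 226, 209.6 and 196 CPM at 35 mM, and the groups overlapped. Canx was at 128, 129 and 173 CPM, 170.0, 127 and 139 CPM and 145, 134 and 129 CPM, with 1 high library at 11.8 mM and 1 at 20 mM. Over both raised concentrations the log2 fold change was 0.21 ± 0.12 for Calr and -0.03 ± 0.12 for Canx. The 95% interval of Canx, -0.28 to 0.22, leaves room for a change of either sign up to that size.

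Among the sensors and transcription factors, Atf6 had the smallest p over the 3 concentrations, and none passed. ATF6 is cut in the Golgi under ER stress to release a transcription factor for chaperone genes. Atf6 was at 52.5, 46.5 and 44.9 CPM at 11.8 mM, 63.1, 71.8 and 60.9 CPM at 20 mM and 73.8, 51.4 and 57.9 CPM at 35 mM. All 20 mM libraries exceeded the basal ones, 1 of the 35 mM libraries did not, and the log2 fold change over both was 0.40 ± 0.13 (adjusted p = 0.204).

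Ern1, which encodes the sensor IRE1 alpha, was at 21.6, 20.1 and 16.9 CPM, 18.2, 17.7 and 31.3 CPM and 20.7, 22.1 and 21.3 CPM at 11.8, 20 and 35 mM. Its 20 mM mean of 22.4 ± 7.73 CPM (SD, n = 3) was set largely by replicate 3, and the log2 fold change over both was 0.16 ± 0.18. Xbp1 and Atf6b, the latter a weaker relative of Atf6, had 0.04 and -0.01, with 95% intervals of -0.23 to 0.31 and -0.34 to 0.32. IRE1 acts by splicing Xbp1 mRNA, and a count of 3′ ends does not separate spliced from unspliced forms, so the values give the level of Xbp1 and not its activation.

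Of the 11 members of ER-associated degradation, 0 were called in any comparison by edgeR, and by DESeq2 0 over both raised concentrations. Without 11.8 mM replicate 1, Edem2 passed at 35 mM, the only 1 of 21 alternative settings in which it did. In that setting 1.38% of all genes were called, against 0.863% in the main fit. The group's median was 0.24 at 20 mM, 0.19 at 35 mM and 0.18 over both. EDEM proteins trim mannose from misfolded glycoproteins and so mark them for export. Edem2 was at 34.6, 31.5 and 23.6 CPM at 11.8 mM, 31.7, 41.7 and 34.7 CPM at 20 mM and 49.9, 41.8 and 43.5 CPM at 35 mM, the reverse order of the raised groups from Pdia6. The 35 mM libraries lay above all others, though narrowly (41.8 CPM in the lowest, against 41.7 CPM in 20 mM replicate 2). The log2 fold change at 35 mM was 0.59 ± 0.17 (adjusted p = 0.107, edgeR). It was 0.70 (adjusted p = 0.0417, edgeR) without 11.8 mM replicate 1, the highest basal library of Edem2.

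Edem1 and Erlec1, given in addition to the naming rule, were also without overlap between raised and basal libraries. Edem1 was at 30.4, 29.9 and 25.9 CPM, 37.3, 33.4 and 31.3 CPM and 39.4, 37.5 and 38.6 CPM at 11.8, 20 and 35 mM, a log2 fold change of 0.42 ± 0.16 at 35 mM (adjusted p = 0.298). Erlec1, a lectin that hands glycoproteins to the degradation complex, was at 37.0, 35.6 and 35.5 CPM, 45.6, 44.0 and 40.9 CPM and 52.3, 41.8 and 48.3 CPM, and its log2 fold change at 35 mM was 0.40 ± 0.15 (adjusted p = 0.298). In both genes the mean was highest at 35 mM.

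For the core of the ubiquitin ligase complex the intervals held both signs. Sel1l, its scaffold, had -0.05 over both (95% interval -0.31 to 0.22), and Syvn1, its catalytic subunit HRD1, had 0.00 (-0.47 to 0.48). Herpud1, a stress-induced partner of the complex, was at 59.4, 42.4 and 46.9 CPM at 11.8 mM, 45.3, 55.3 and 40.9 CPM at 20 mM and 48.3, 44.7 and 35.2 CPM at 35 mM, a log2 fold change of -0.14 ± 0.14. Derl1 and Derl2, derlins of the export channel, had 0.18 and 0.14, Os9 had 0.23 and Edem3 had 0.29. Derl3, a derlin induced under ER stress, was at 11.2, 7.18 and 4.95 CPM at 11.8 mM, 6.77, 8.34 and 9.31 CPM at 20 mM and 4.83, 6.39 and 3.41 CPM at 35 mM. Its log2 fold change at 35 mM was -0.68 ± 0.32 (adjusted p = 0.465), and 11.8 mM replicate 1 was highest of all 9 libraries.

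The libraries of raised glucose lay wholly above the basal ones in 14 members at 20 mM (6.79% of all genes), in 11 at 35 mM (8.22%) and, with all 6 raised libraries counted, in 9 members (2.95%). The 9 were Hspa5, Hsp90b1, Dnajb9, Dnajc3, Manf, P4hb, Erp44, Edem1 and Erlec1. No member lay wholly below the basal libraries at 20 mM (6.04% of all genes), at 35 mM (6.69%) or with all 6 counted (1.91%). Here too all genes are a background of larger standard errors than the members had.

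Between the raised concentrations, 35 against 20 mM, 0 of the 36 members were called by edgeR or by DESeq2, against 0.0308% of all genes. Unadjusted p was under 0.05 upward for 0 members (2.73% of all genes) and downward for 2, Pdia6 and Derl3 (2.56%). The median was -0.06, and 12 of 36 were above 0 (49.8% of all genes). That median was -0.012 without 20 mM replicate 1 and -0.029 without 20 mM replicate 3. Without 20 mM replicate 2 it was -0.044. Leaving out replicate 1 or 3 at 35 mM gave -0.040 and -0.041, and leaving out replicate 2 there gave -0.081. In alternatives added after seeing the data it was above 0 in barcode sets 2 (0.013) and 3 (0.0091). It was below 0 in set 1 (-0.021) and with the 2 sub-libraries low in Pdia6 left out (-0.046). At 35 mM 6 members were wholly below 20 mM (5.76% of all genes): Hspa5, Hsp90b1, Pdia4, Pdia6, Creld2 and Derl3. 3 were wholly above (6.15%): Syvn1, Edem1 and Edem2. The log2 fold change was -0.32 ± 0.13 for Pdia6 (95% interval -0.59 to -0.05) and -0.20 ± 0.12 for Hspa5 (-0.45 to 0.05). The Pdia6 value includes the low sub-library of 35 mM replicate 3, at 722 CPM against 1511 and 1557 (CPM without TMM). The Pdia6 interval without that sub-library is not given here. With all 36 summed, the level was 5553 ± 265 CPM at 11.8 mM, 7121 ± 315 CPM at 20 mM and 6628 ± 181 CPM at 35 mM (SD, n = 3). Pdia6, Ero1b and Hspa5 were the largest parts of this sum. At 11.8, 20 and 35 mM, Pdia6 had means of 1158, 1751 and 1402 CPM. In the same order Ero1b had 1334, 1628 and 1683 CPM, and Hspa5 had 706, 907 and 787 CPM.

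The sizes depended on which basal libraries were used. Relative to their group, the members were high in 11.8 mM replicate 1 (median deviation 0.10 on the log2 scale) and low in replicate 3 (-0.11). The median log2 fold change over both raised concentrations was 0.32 without the former and 0.14 without the latter. 11.8 mM replicate 3 also had the highest beta cell marker share of the 9 libraries (59.0%) and the lowest shares of delta and PP cell markers (1.37%, against 2.00% to 2.43% in the others), acinar markers (0.373%) and duct markers (0.0300%). 11.8 mM replicate 1 had the highest shares of alpha cell markers (2.02%), delta and PP cell markers (2.43%) and fibroblast and stellate cell markers (0.0639%). The beta share was made mostly of Ins1 and Ins2 counts, and the delta and PP share of Sst and Ppy counts. Single markers did not all follow the sums. As shares of gene counts, Ins2, Slc2a2, Slc30a8 and G6pc2 were higher in 11.8 mM replicate 3 than in replicate 1. Ins1, Iapp, Ucn3, Pdx1 and Nkx6-1 were lower there, and Hhex was highest of the 9 libraries in replicate 3. Among the 11.8 mM libraries the acinar share was highest in replicate 2, whose member deviation was -0.04. At 20 mM, acinar share and member deviation had the same order over the 3 libraries, and at 35 mM replicate 1 was highest in both. The part of cell composition in the members' differences was not tested beyond the acinar covariate. With the summed level of acinar markers as a covariate, the median was 0.23, and neither Pdia6 at 20 mM (adjusted p = 0.237) nor Hsp90b1 over both (adjusted p = 0.0785) passed.

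**Figure D3:**
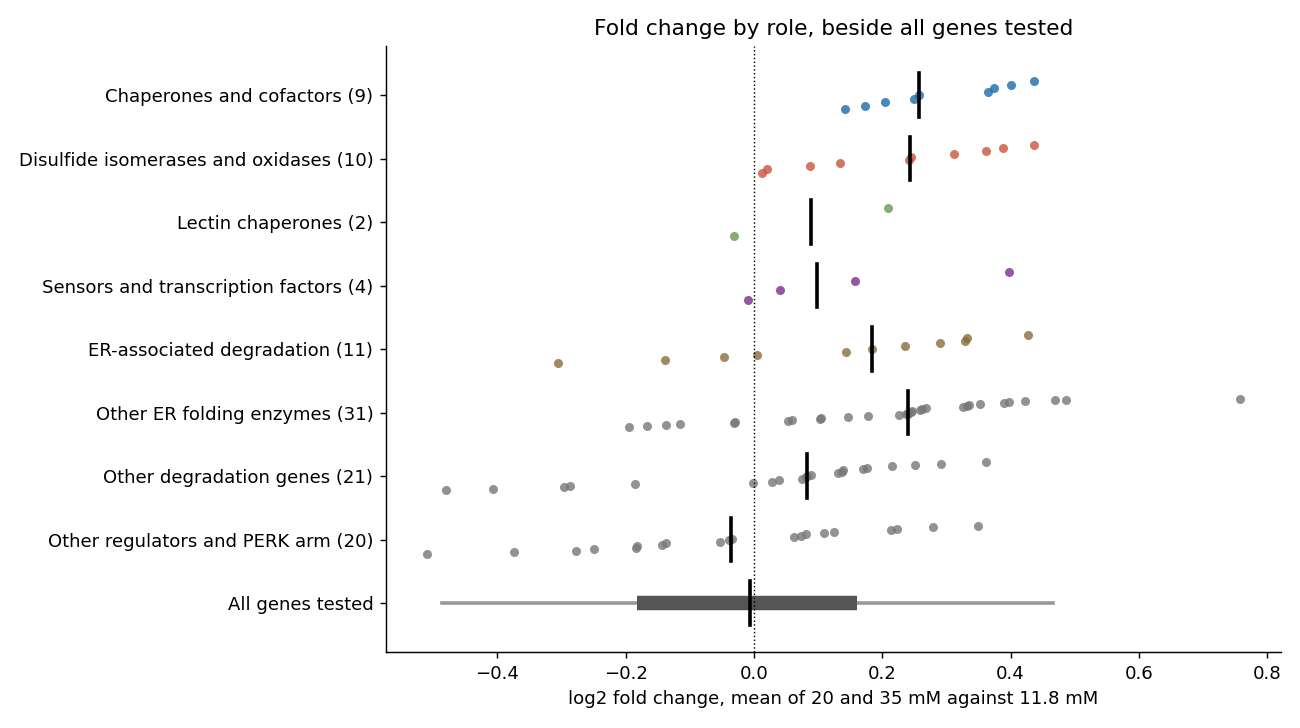
Log2 fold change over both raised concentrations (x axis) of each gene, in rows by role for the members (colours) and for 3 lists of other genes of the pathway (grey), with the number of genes in brackets; vertical bars are medians, and the bottom row gives all genes tested (thick bar, 25% to 75%; thin bar, 5% to 95%). The medians of chaperones (0.26), isomerases (0.24) and other ER folding enzymes (0.24) lie above the 75% point of all genes (0.16), and that of the other regulators and PERK arm (-0.04) lies near 0.

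Genes of the pathway outside the 36 were taken from 3 lists. Of 34 other ER folding enzymes (prolyl isomerases, glucosidases, oligosaccharyltransferase subunits and further isomerases), 31 were tested, 2 rose over both raised concentrations by edgeR and 0 fell, with a median of 0.24. Fkbp11, an ER prolyl isomerase, was at 17.3, 18.5 and 11.9 CPM at 11.8 mM, 28.3, 28.3 and 25.4 CPM at 20 mM and 27.6, 27.6 and 25.6 CPM at 35 mM. No raised library overlapped a basal one, and the log2 fold change was 0.76 ± 0.17 (adjusted p = 0.0163), a size that no member reached. It rose at 35 mM alone as well (0.75 ± 0.19, adjusted p = 0.0483), a call kept under 5 of 21 alternative settings. The pooled call was kept under 15 of 20 and lost in each barcode set alone, with the acinar covariate (0.67, adjusted p = 0.0791) and without 11.8 mM replicate 3 (0.59, adjusted p = 0.171).

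Dad1, a subunit of the oligosaccharyltransferase that attaches glycans to new chains, was at 357, 383 and 327 CPM, 589, 459 and 456 CPM and 497, 492 and 498 CPM. It too had no overlap and a log2 fold change of 0.49 ± 0.11 (adjusted p = 0.0294). That call was kept under 10 of 20 alternative settings, and was lost with the replicate block (adjusted p = 0.0523), with the acinar covariate (adjusted p = 0.184) and without 11.8 mM replicate 3, 20 mM replicate 1 or any 1 of the 35 mM libraries (adjusted p between 0.0588 and 0.171).

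Of 22 other degradation genes, 21 were tested and 0 were called over both raised concentrations by edgeR or DESeq2, where 0 had an unadjusted p under 0.05. Their median was 0.08. Man1b1, a mannosidase that acts with the EDEM proteins, had the smallest p over the 3 concentrations: it was at 10.1, 7.64 and 8.45 CPM, 7.70, 7.08 and 9.31 CPM and 15.0, 14.5 and 13.1 CPM, and its log2 fold change at 35 mM was 0.70 ± 0.24 (adjusted p = 0.222). Next came Svip, an inhibitor of ER-associated degradation, with -0.47 at 35 mM (adjusted p = 0.365).

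Of 22 other regulators, among them the genes of the PERK arm, 20 were tested and 0 were called by edgeR or DESeq2 over both raised concentrations, where 1 had an unadjusted p under 0.05, downward. Their median was -0.04. Chac1, a glutathione-degrading enzyme downstream of PERK and ATF4, was at 54.1, 47.0 and 42.2 CPM, 38.2, 55.6 and 56.7 CPM and 63.9, 67.9 and 54.0 CPM at 11.8, 20 and 35 mM, with overlap between all groups. Bax, a pro-apoptotic gene, was at -0.37 ± 0.17 on the log2 scale over both raised concentrations (adjusted p = 0.430).

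**Figure D4:**
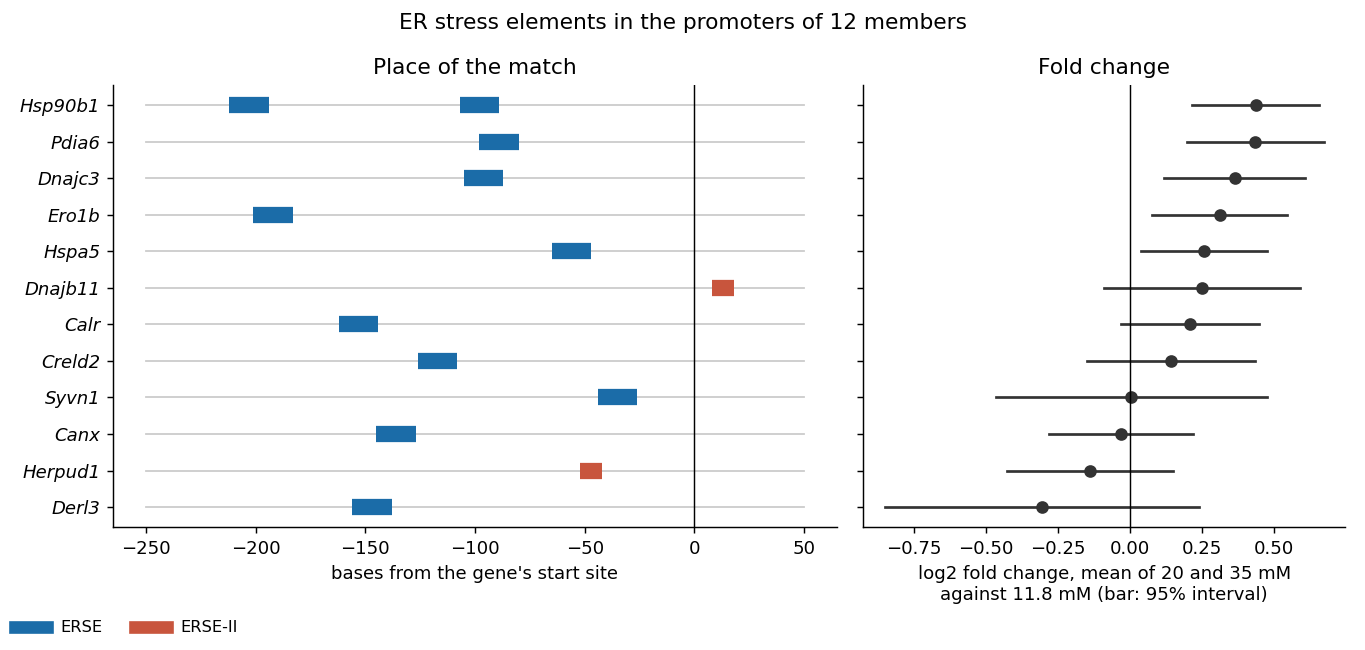
Left, place of the ERSE (blue) and ERSE-II (red) matches in the promoters of 12 members (x axis, bases from the start site; the grey line is the window searched); right, log2 fold change of the same members over both raised concentrations with 95% intervals. Hsp90b1, with 2 matches, and Pdia6, with 1 match, are at the top with 0.44 each, and Derl3, with 1 match, is at the bottom with -0.31. Carriers of the element span the range.

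The fold changes of members with and without these elements can be set side by side. Over both raised concentrations the 12 members with ERSE or ERSE-II had a median log2 fold change of 0.23, between -0.31 and 0.44. The 18 members with neither had 0.22, between -0.05 and 0.43, and the 6 with no promoter entry had 0.26. Among the ERSE carriers were the 2 called members and also Canx, Syvn1 and Derl3, which were at -0.03, 0.00 and -0.31. No test of the difference was run.

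Reads can be shared where exons overlap, and the counting strand is not given in the sources used here. Exons of 11 members overlap those of another annotated gene, 10 of them on the opposite strand. For Pdia6 the neighbour Atp6v1c2 held 0 or 1 counts per library, and for Pdia3 the neighbour Catsper2 held 2 to 8. For Manf the neighbours Rbm15b and Dcaf1 held 13 to 25 and 9 to 19 counts. Neighbours were larger beside 2 low members. Syvn1 had 23 to 54 counts per library, and its neighbour Mrpl49 held 22 to 46. Txndc11 had 25 to 50, and its neighbour Snn held 7 to 23. Hsp90b1 overlaps 3 genes with no row in the table, so reads of these cannot be told from its own.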

How the data were processed

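RNA from 9 islet samples was made into CEL-Seq2 libraries, per the labels' protocols. The deposited values are raw counts of reads for each gene in 27 barcoded sub-libraries, 3 to a sample. The authors used cutadapt, TopHat, HTSeq and DESeq2 with the build GRCm38.p4, per the submitters' processing notes; tool versions, annotation and strand setting: not given in the sources used here. Amplified copies are included, since in 16 genes the count of a sub-library exceeds what 6-base molecular identifiers can number (4096). The highest was 605402. Depth in reads is therefore not a number of molecules. A deposited sample sheet ties sub-libraries to samples; they were summed. Its names match the labels; 30 columns of per-sample values in other tables do not and were not used. Spike-ins (92) and 5 summary lines, 19.6% to 29.9% of reads, were left out. Identifiers were matched to symbols in GENCODE M21 (21781 of 22048).

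The main fit was edgeR 4.0.16 (R 4.3.3) with TMM, filterByExpr and the robust quasi-likelihood test, with 1 mean for each concentration (9 libraries, 6 residual degrees of freedom) and Benjamini-Hochberg adjustment over 9739 genes; called means an adjusted p under 0.05. Contrasts were the 3 pairs of concentrations and the mean of 20 and 35 mM against 11.8 mM. The scripts were tested on simulated data. Alternatives were DESeq2 1.42.0, other scalings and filters, a replicate block, an acinar covariate and each library left out. With 3 libraries against 3, exact permutation allows no p below 0.1, so single-concentration calls rest on the spread shared across genes. The members, their roles, the lists and the contrast of the mean of 20 and 35 mM against 11.8 mM were chosen with earlier results of these data known. Values per library are given for members called in any comparison or with an unadjusted p under 0.01 in one, and for at least 2 of each role; from each other list, up to 4 called genes or else the 2 with the smallest p over the 3 concentrations. Members outside that rule named with values (Ero1b, Edem1, Erlec1 and others) were chosen after their values were seen.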

Additional observations from a re-analysis of the deposited data

How the results depend on the processing

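No call on a member held under every setting, though no called value changed its sign. At 20 against 11.8 mM (1 member called), the count was 0 with DESeq2's size factors, with a filter of at least 10 CPM in 3 libraries, with the acinar covariate and with only the 2 concentrations compared, 3 with the DESeq2 test (Hspa5, Hsp90b1 and Pdia6), and 0 to 1 with a library left out. Over both raised concentrations (1 called) it was 2 without a filter and with the DESeq2 test (Hsp90b1 and Pdia6), 0 with the acinar covariate, and 0 to 1 with a library left out; without 11.8 mM replicate 1 the call was Dnajb9 in place of Hsp90b1. At 35 against 11.8 mM (0 called) it was 0 to 1, Edem2 without 11.8 mM replicate 1. For any difference among concentrations (0 called) it was 1 without a filter, 1 without the 20 most abundant genes and 2 with the DESeq2 test. With the replicate block it was 0 at 20 mM and 0 over both raised concentrations, and the block changed no other member's call. Libraries with the same number deviated together no more than others (r of -0.16 to 0.05 over 9 pairs, against -0.17 to 0.17 over 18). Such a check cannot exclude a pairing, and the labels do not say what libraries of the same number share.

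Alternatives added after seeing the data kept 1 of the 3 barcode sets, or left out the 2 sub-libraries low in Pdia6: the count was 0 at 20 mM and 0 over both raised concentrations in all 4. Median log2 fold changes over both raised concentrations ran, with a library left out, from 0.14 to 0.32 for all members, 0.22 to 0.41 for chaperones, 0.18 to 0.29 for isomerases and 0.060 to 0.16 for the other degradation genes. Barcode set 1 gave 0.31 for isomerases, -0.059 for lectin chaperones, 0.20 for the other folding enzymes and 0.070 for the other regulators. Set 2 gave -0.0038 for sensors and 0.20 for the other folding enzymes; set 3 gave 0.24 for sensors, 0.089 for degradation and -0.039 for the other degradation genes. The filter of at least 10 CPM gave 0.057 for the other regulators.

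Over all genes, calls at 20 against 11.8 mM (18) were 51 without a filter, 48 with the DESeq2 test, 11 with the acinar covariate, 11 with the 2 concentrations alone and 7 to 35 with a library left out. At 35 against 11.8 mM (84) they were 148 without a filter and 41 to 138 with a library left out. Over both (84) they were 147, 48 with the acinar covariate and 36 to 105. For any difference (59) they were 126 without a filter and 34 to 75, and at 35 against 20 mM (3) they were 1 to 7 with a library left out. In single barcode sets the calls were 2 to 14, 12 to 42, 5 to 35, 8 to 32 and 1 in these 5 tests, with fewer genes tested.

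Pdia4, Derl3, Txndc5, Txndc11 and Syvn1, which had the lowest counts of the members, had standard errors of 0.22 to 0.40 over both raised concentrations, against 0.13 for the median member.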
